A study of Mus musculus with 41 samples.

Results

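Mouse microglia cultured for 7 d with IL-34 and without TGFb were compared with microglia cultured for 6 h with IL-34, across all genes, from poly(A) RNA sequencing of 7 libraries: 5 at 7 d and 2 at 6 h. They are 7 of the 21 RNA libraries and of the 41 samples in the series, and were chosen by their labels alone. The cells came from C57Bl6 mice and were sorted by flow cytometry, and RNA was made from 100000 to 150000 cells. Both groups grew in DMEM/F12 with 5% heat-inactivated fetal serum, received IL-34 every day and had no change of medium, so serum, IL-34 and removal from the brain are common to both times. Culture time is the labelled difference, and a 7 d culture also has a week of used medium and added IL-34 behind it, which cannot be told apart from time itself. The labels do not say whether replicates came from separate animals or cultures, so p-values measure the spread between libraries, which may in part be technical. That spread was estimated from 17 microglial libraries. They are the 7 compared and 10 others, from ex vivo cells, 24 h cultures and 7 d cultures with TGFb.

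Microglia are the resident macrophages of the brain and depend on signalling through the CSF1 receptor, for which IL-34 is a ligand. In the brain, TGFb and contact with other cells maintain a characteristic set of surface receptors and transcription factors, and taking the cells out is known to lower that set and to start stress and inflammatory programmes. A macrophage kept in culture is also known to build up lysosomes and lipid-handling proteins. The comparison of 7 d with 6 h asks what follows the first hours in culture.

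Depth was 24186690 to 28024478 counted reads per library at 7 d and 21392355 to 25643201 at 6 h. The 50 most abundant genes took 19.5% to 21.8% of the reads at 7 d and 15.7% to 16.0% at 6 h. Log2 expression, with reads scaled to library size (CPM), correlated at 0.957 to 0.993 between 7 d libraries, highest between replicates 2 and 3, and at 0.99 between the 6 h libraries. Summed markers of microglia and macrophages were at 11050 to 17430 CPM at 7 d and 4854 to 5086 CPM at 6 h. Most of that difference was Lyz2, at 4232 to 10640 CPM at 7 d and 5.94 to 13.5 CPM at 6 h. Of the 8 markers 4 were higher at 7 d, 3 (Csf1r, Spi1 and Ptprc) lower and Itgam not called. The 10 neuronal markers summed to 0.571 to 1.19 CPM at 7 d and 0.561 to 1.21 CPM at 6 h. Of them Rbfox3 was higher at 7 d and Tubb3 lower, both under 1 CPM in every library of either time.

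Of 24537 gene symbols, 13840 were abundant enough to test, and 9129 (66.0%) differed between 7 d and 6 h at an adjusted p under 0.05 by edgeR's quasi-likelihood test with Benjamini-Hochberg adjustment. Such genes are referred to as called. At 7 d, 4984 genes (36.0%) were higher and 4145 (29.9%) were lower. By at least 2-fold, 3795 (27.4%) were higher and 2658 (19.2%) lower. Every 7 d library lay above every 6 h library for 5392 genes (39.0%) and below for 4712 (34.0%). With this many genes called, each list below is read against these shares and against the median log2 fold change of all tested genes, which was 0.15. Fold changes are log2 values of 7 d over 6 h with their standard errors. Levels are given per library in the order of replicates 1 to 5 at 7 d and 1 and 2 at 6 h, or as means ± SD (n = 5 at 7 d, n = 2 at 6 h, n = 3 at 24 h and n = 5 ex vivo).

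**Figure D1:**
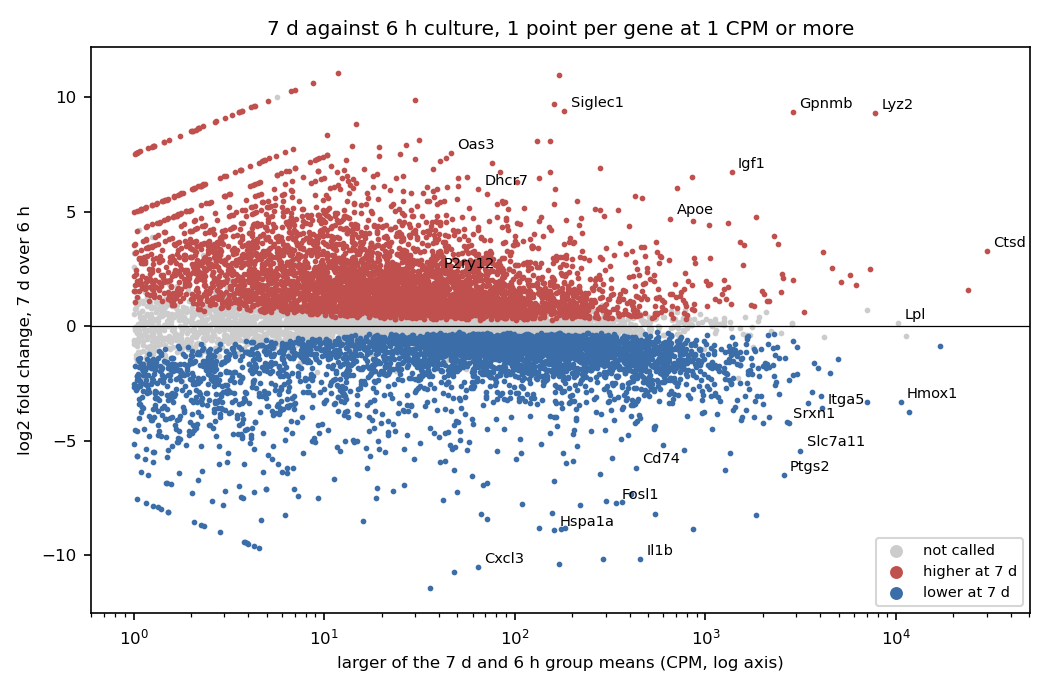
Each point is 1 of the 11961 tested genes that averaged 1 CPM or more at 7 d or at 6 h; the x axis is the larger of the 7 d and 6 h means in CPM on a log scale and the y axis is the log2 fold change of 7 d over 6 h. Red and blue points are genes called higher and lower at 7 d, and grey points were not called. Among the labelled genes, Siglec1, Gpnmb and Lyz2 stand highest and Cxcl3 and Il1b lowest, while Lpl lies near 0.

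The scale matters for small changes. Scaling by RLE in place of TMM brought the median of all genes to 0.02, and upper-quartile scaling brought it to 0.28. Fold changes also moved with gene length. Length was not taken from an annotation but estimated from the ratio of the deposited counts to the deposited TPM values. With genes ordered by this length in 5 groups of equal size, the median log2 fold change was 0.64 in the shortest group and -0.28 in the longest. In the shortest group 42.4% of genes were higher at 7 d and 17% lower, against 26.8% higher and 41.1% lower in the longest. The part of library preparation or RNA quality in this trend was not tested. With the trend taken out, an alternative chosen after seeing the data, 4483 genes were higher and 4699 lower.

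**Figure D2:**
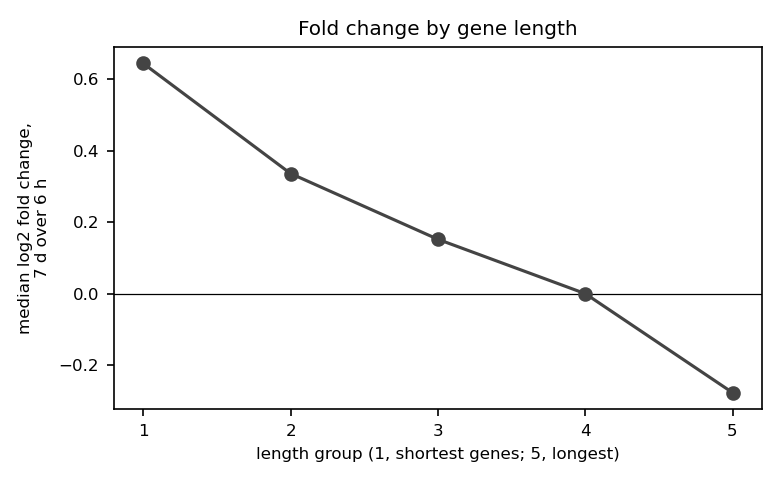
Median log2 fold change of 7 d over 6 h (y axis) in 5 equal groups of 2768 tested genes ordered by length (x axis, 1 the shortest and 5 the longest). Length was estimated from the ratio of the deposited counts to the deposited TPM values. The median falls at each step, with 0.64 in group 1 and -0.28 in group 5.

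Most genes for inflammatory mediators were far lower at 7 d than at 6 h. Of 26 tested mediators, 19 fell, 0 rose and 7 were not called, with a median log2 fold change of -3.14. The cytokines fell in 7 of 9 cases. Il1b, which encodes interleukin 1 beta, had 0.295, 0.343, 0.929, 0.317 and 0 CPM at 7 d, against 529.5 and 377 CPM at 6 h (log2 fold change -10.18 ± 0.46, adjusted p = 1.1e-10). All 7 d libraries were under 1 CPM, and the groups did not overlap. Il1a, the sister cytokine, had 1.8, 1.27, 1.37, 2.18 and 2.77 CPM at 7 d, against 969 and 756 CPM at 6 h (log2 fold change -8.85 ± 0.47, adjusted p = 6.0e-10). Tnf, the tumour necrosis factor gene, kept a measurable level, with 55, 38.2, 31.8, 74.3 and 38.8 CPM at 7 d, against 1126 and 1046 CPM at 6 h (log2 fold change -4.51 ± 0.80, adjusted p = 0.00015). Lif, a cytokine of the interleukin 6 family, had 0.037 ± 0.0371 CPM at 7 d and 16 ± 4.22 CPM at 6 h (log2 fold change -8.53 ± 1.06, adjusted p = 3.5e-06). Ptgs2, the inducible prostaglandin synthase, had 23.5, 18, 14.5, 49.7 and 36.6 CPM at 7 d, against 2439.7 and 2717 CPM at 6 h (log2 fold change -6.50 ± 0.64, adjusted p = 4.2e-07). Every 7 d library was far below both 6 h libraries, though still above the ex vivo mean of 1.86 ± 1.65 CPM.

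Chemokines split by size of change. Of 11 tested, 7 fell. Cxcl2 and Cxcl3, which attract neutrophils, were under 4 CPM in every 7 d library. Cxcl2 had 2.91, 0.754, 1.23, 3.8 and 0.597 CPM at 7 d, against 555 and 532 CPM at 6 h (log2 fold change -8.19 ± 0.79, adjusted p = 3.6e-07). Cxcl3 was represented by 5 reads in all 5 libraries at 7 d, with 0.147, 0, 0.0372, 0 and 0 CPM at 7 d, against 64.4 and 63.7 CPM at 6 h (log2 fold change -10.53 ± 0.61, adjusted p = 6.7e-10). Ccl3 and Ccl4, chemokines that macrophages secrete, fell less. Ccl3 had 228, 531, 443, 470.1 and 373 CPM at 7 d, against 1773 and 1741 CPM at 6 h (log2 fold change -2.10 ± 0.68, adjusted p = 0.013), and Ccl4 had 149, 505, 419, 284 and 176 CPM at 7 d, against 1266 and 1087 CPM at 6 h (log2 fold change -1.94 ± 0.79, adjusted p = 0.042). All 7 d libraries lay below both 6 h libraries for both genes, but leaving out 6 h replicate 1 ended both calls (adjusted p = 0.0523 for Ccl3 and 0.139 for Ccl4). Of 18 alternatives, 5 ended the call of Ccl3 (adjusted p = 0.000216 to 0.083 over all 18) and 12 that of Ccl4 (0.00345 to 0.139). Ccl2, a monocyte attractant, was not called (4.16, 16, 2.15, 15.4 and 0.768 CPM at 7 d, against 8.5 and 7.99 CPM at 6 h), nor was Ccl5 (1.36, 25.7, 44.6, 2.38 and 0.768 CPM at 7 d, against 98.6 and 12.6 CPM at 6 h). For both, the groups overlapped. Leaving out 7 d replicate 3 gave Ccl5 a log2 fold change of -2.87 and a call (adjusted p = 0.0276), against -1.89 with it, and over all 18 alternatives its adjusted p was 5.54e-05 to 0.936. Ccl24, an eosinophil attractant, was among the 10 largest falls, with 3 reads at 7 d and 1796 at 6 h. That is a ratio of 2110 in favour of 6 h, with an exact counting interval of 719 to 10200.

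Promoters of the CXCL neutrophil attractants are shown because these genes fell together and carry the sequence that NF-kB binds. The windows run from 250 bases before to 50 after the annotated start, from RefSeq on GRCm38.p6, all on the plus strand: chr5:90890995-90891294 for Cxcl1, chr5:90903649-90903948 for Cxcl2 and chr5:90785851-90786150 for Cxcl3. Capitals mark matches to GGGA and TTCC with 2 bases of any kind between them, searched on both strands; here the matches of both strands overlap.
Cxcl1: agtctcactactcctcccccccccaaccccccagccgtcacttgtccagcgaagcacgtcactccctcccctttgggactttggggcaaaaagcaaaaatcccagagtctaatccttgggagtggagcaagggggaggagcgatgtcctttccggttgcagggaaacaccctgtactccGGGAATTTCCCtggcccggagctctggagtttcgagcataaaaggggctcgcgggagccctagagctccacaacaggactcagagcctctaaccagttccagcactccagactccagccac
Cxcl2: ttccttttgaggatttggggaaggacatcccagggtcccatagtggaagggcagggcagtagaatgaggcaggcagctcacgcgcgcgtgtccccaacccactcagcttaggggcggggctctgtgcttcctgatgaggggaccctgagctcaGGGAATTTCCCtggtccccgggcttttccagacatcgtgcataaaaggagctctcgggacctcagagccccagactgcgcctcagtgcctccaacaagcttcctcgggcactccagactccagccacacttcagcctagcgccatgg
Cxcl3: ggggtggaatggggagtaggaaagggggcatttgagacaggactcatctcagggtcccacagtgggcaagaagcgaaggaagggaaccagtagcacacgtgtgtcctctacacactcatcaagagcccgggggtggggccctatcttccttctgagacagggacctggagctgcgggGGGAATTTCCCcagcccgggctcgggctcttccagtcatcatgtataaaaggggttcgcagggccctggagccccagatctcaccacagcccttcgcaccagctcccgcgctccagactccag
Cxcl1 itself was low, with 0.589, 0.137, 0.149, 0.158 and 0.256 CPM at 7 d, against 1.54 and 2.36 CPM at 6 h (log2 fold change -2.89 ± 0.68, adjusted p = 0.0012). Among 10457 tested genes with a promoter window, 1.69% held the motif, against 5 of the 15 mediators that fell and had a window. Of the 19 fallen genes of the NF-kB and MAPK feedback list with a window, 2 held it. These are matches of letters and do not show binding.

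Genes that NF-kB and MAP kinases switch on to restrain themselves fell as well. The NF-kB and MAPK feedback list also holds NF-kB subunits and other targets. Of its 28 tested genes, 24 fell, 0 rose and 4 were not called, with a median of -3.07. All 4 NF-kB subunits, 10 of 11 inhibitors, 4 of 5 MAPK phosphatases and 6 of 8 other targets fell. Nfkbia, the NF-kB inhibitor alpha, had 131, 69.4, 74.2, 137 and 101 CPM at 7 d, against 841 and 785 CPM at 6 h (log2 fold change -2.99 ± 0.36, adjusted p = 2.9e-06). Socs3, an inhibitor of cytokine signalling, had 5.12, 1.71, 2.38, 4.48 and 2.13 CPM at 7 d, against 324 and 235 CPM at 6 h (log2 fold change -6.46 ± 0.83, adjusted p = 7.3e-06). Nuclear phosphatases that switch off MAP kinases fell too. Dusp2 had 0.981 ± 0.267 CPM at 7 d and 220.4 ± 9.16 CPM at 6 h (log2 fold change -7.80 ± 0.82, adjusted p = 8.3e-07) and Dusp5 had 1.45 ± 0.886 CPM at 7 d and 161 ± 2.84 CPM at 6 h (log2 fold change -6.78 ± 0.60, adjusted p = 1.1e-07). Dusp1 had 16.4 ± 5.93 CPM at 7 d and 1271 ± 58.6 CPM at 6 h (log2 fold change -6.27 ± 1.14, adjusted p = 0.000197). Dusp6, the phosphatase for ERK, was not called, with 212, 240.2, 193, 111 and 157 CPM at 7 d, against 139 and 78.7 CPM at 6 h and overlapping groups (log2 fold change 0.74 ± 0.34, adjusted p = 0.062). Of 18 alternatives, 7 called it higher (adjusted p = 0.00633 to 0.499 over all 18), among them leaving out 6 h replicate 1 (1.18) or 7 d replicate 4 (0.88).

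Immediate-early genes, which are switched on within minutes of a stimulus, fell in 15 of 23 tested cases, with 0 higher, 8 not called and a median of -3.15. Fosl1, an AP-1 subunit, had 1.51, 0.926, 0.743, 3.52 and 1.28 CPM at 7 d, against 317 and 359.7 CPM at 6 h (log2 fold change -7.73 ± 0.47, adjusted p = 2.1e-09). Egr3 had 0.536 ± 0.433 CPM at 7 d and 67.9 ± 20.2 CPM at 6 h (log2 fold change -6.93 ± 1.04, adjusted p = 3.2e-05), Nr4a1, an orphan nuclear receptor, had 3.84 ± 1.51 CPM at 7 d and 179 ± 26.8 CPM at 6 h (log2 fold change -5.54 ± 0.83, adjusted p = 3.1e-05), and Nr4a3 had 0.34 ± 0.129 CPM at 7 d and 17.5 ± 4.91 CPM at 6 h (log2 fold change -5.68 ± 0.48, adjusted p = 3.2e-08). Egr1 had 32.9, 101, 96.4, 60.5 and 53.4 CPM at 7 d, against 897 and 1017 CPM at 6 h (log2 fold change -3.80 ± 1.07, adjusted p = 0.0056), and its call was lost with a replicate block (adjusted p = 0.0524) and on the deposited TPM values (adjusted p = 0.0532). The classical members Fos and Jun were not called. The spread used in the fit also takes in the ex vivo libraries, which averaged 1972 ± 2069 CPM for Fos and 3824 ± 3522 CPM for Jun. Fos had 100, 54.1, 52.7, 129 and 76.1 CPM at 7 d, against 66.8 and 55.6 CPM at 6 h, and Jun had 238, 189, 176, 288 and 338 CPM at 7 d, against 560.1 and 521 CPM at 6 h. Atf3 had 273, 263, 307, 311 and 376 CPM at 7 d, against 1485 and 1491 CPM at 6 h and lay just outside the threshold (log2 fold change -2.28 ± 0.99, adjusted p = 0.054), with groups that did not overlap. It was called in 4 of 18 alternatives (adjusted p = 1.18e-05 to 0.191), among them RLE scaling, DESeq2 and a fit of the 7 d and 6 h libraries alone. That last fit also called Jun lower (-1.17, adjusted p = 0.00392; 0.00392 to 0.444 over all 18) and gave 20 fallen genes of the list, against 15.

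**Figure D3:**
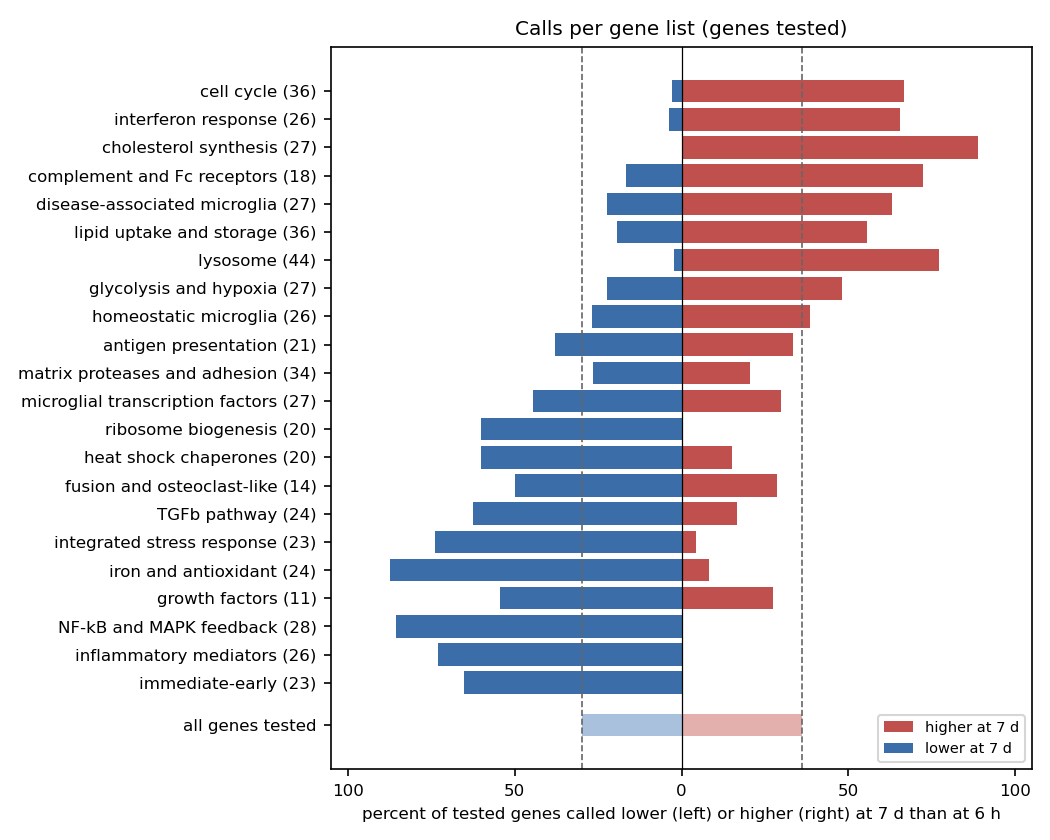
Percent of the tested genes of each list called higher (red, to the right) or lower (blue, to the left) at 7 d than at 6 h, with the number tested in brackets; lists run by their median log2 fold change. The pale bars and dashed lines give all tested genes (36.0% higher and 29.9% lower), and cholesterol synthesis extends almost wholly to the right and the iron and antioxidant list mostly to the left.

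Chaperone and stress genes were mostly lower at 7 d. Heat shock chaperones, which refold damaged proteins, fell in 12 of 20 tested cases and rose in 3, with a median of -1.04. Hspa1a, an inducible Hsp70, had 0.405, 0.206, 0.334, 0.436 and 0.256 CPM at 7 d, against 148 and 172 CPM at 6 h (log2 fold change -8.92 ± 1.18, adjusted p = 9.4e-06). Its near-identical neighbour Hspa1b had 0.884, 0.103, 0.409, 0.396 and 0.0427 CPM at 7 d, against 150.1 and 198 CPM at 6 h (log2 fold change -8.85 ± 0.98, adjusted p = 1.5e-06). Counting can split reads between these copies, so each value alone is uncertain, but both were under 1 CPM in all 7 d libraries. Ex vivo they averaged 344 ± 303 CPM and 485 ± 377 CPM. Hspb1, a small chaperone, had 0.222 ± 0.0626 CPM at 7 d and 16.7 ± 2.49 CPM at 6 h (log2 fold change -6.20 ± 1.01, adjusted p = 6.2e-05), and Dnajb4, an Hsp40, had 64.9 ± 28.2 CPM at 7 d and 422 ± 51.3 CPM at 6 h (log2 fold change -2.70 ± 0.52, adjusted p = 0.00033). Hspa5, the chaperone of the endoplasmic reticulum, and Hspa4 were not called, with log2 fold changes of 0.33 ± 0.51 and -0.03 ± 0.12.

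The integrated stress response, in which translation is slowed and ATF4 drives amino acid supply, fell in 17 of 23 tested genes, with 1 higher, 5 not called and a median of -1.56. Atf4 had 219, 184, 189, 259.7 and 226 CPM at 7 d, against 1058 and 1081 CPM at 6 h (log2 fold change -2.31 ± 0.34, adjusted p = 1.7e-05). Ddit3, which encodes CHOP, had 24.1, 32.7, 37, 32.9 and 24.1 CPM at 7 d, against 93 and 108 CPM at 6 h (log2 fold change -1.74 ± 0.24, adjusted p = 9.4e-06). Ppp1r15a, which restores translation, had 29.9 ± 6.79 CPM at 7 d and 364 ± 45.1 CPM at 6 h (log2 fold change -3.61 ± 0.77, adjusted p = 0.00079), and Chac1, a glutathione-degrading enzyme, had 1.29 ± 0.651 CPM at 7 d and 12.8 ± 0.134 CPM at 6 h (log2 fold change -3.29 ± 0.76, adjusted p = 0.0012). Among suppliers of amino acids, Slc7a5 had 13.1 ± 5.22 CPM at 7 d and 209 ± 40.9 CPM at 6 h (log2 fold change -3.99 ± 0.38, adjusted p = 2.6e-07). The cystine importer Slc7a11 had 98.9, 7.03, 7.17, 95 and 156 CPM at 7 d, against 3397 and 2894 CPM at 6 h (log2 fold change -5.43 ± 0.80, adjusted p = 2.6e-05). Its 7 d libraries split: replicates 2 and 3 were near 7 CPM and the other 3 at 95 or more, all far below 6 h. Psat1, an enzyme of serine synthesis, and Nars were not called. Leaving out 7 d replicate 4 gave Psat1 a call (0.60, adjusted p = 0.0285; 0.0285 to 0.719 over 18 alternatives). DESeq2 and the gene-length correction called Nars lower (adjusted p = 0.0151 to 1.0 over 18).

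The Slc7a11 promoter (RefSeq, GRCm38.p6, chr3:50443564-50443863, minus strand, shown 5′ to 3′ along the gene) is printed because it holds a facing pair of amino acid response elements. Capitals mark both matches to TGATGNAA.
Slc7a11: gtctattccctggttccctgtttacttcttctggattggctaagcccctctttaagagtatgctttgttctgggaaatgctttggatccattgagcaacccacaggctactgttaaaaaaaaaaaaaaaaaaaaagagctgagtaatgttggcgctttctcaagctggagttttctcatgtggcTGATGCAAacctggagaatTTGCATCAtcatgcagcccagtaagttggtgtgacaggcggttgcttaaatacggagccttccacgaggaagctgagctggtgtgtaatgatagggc
The motif was in 2.87% of the promoters of tested genes and in 6 of the 15 integrated stress response genes that fell and had a window.

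Genes of iron handling and antioxidant defence were mostly lower at 7 d. Of 24 tested, 21 fell, 2 rose and 1 was not called, with a median of -1.65, and all 16 members under the Nrf2 role fell. Nrf2 is the transcription factor that answers oxidants and electrophiles. Srxn1, sulfiredoxin, had 162, 93.2, 95.7, 186 and 191 CPM at 7 d, against 2779 and 2568 CPM at 6 h (log2 fold change -4.20 ± 0.23, adjusted p = 3.5e-10). Gclc, the catalytic subunit for glutathione synthesis, had 113, 74.5, 82.9, 114 and 155 CPM at 7 d, against 2187 and 1819 CPM at 6 h (log2 fold change -4.21 ± 0.21, adjusted p = 1.4e-10). Txnrd1, thioredoxin reductase, had 335 ± 89.1 CPM at 7 d and 3433 ± 135 CPM at 6 h (log2 fold change -3.36 ± 0.19, adjusted p = 4.1e-10), and Nqo1, a quinone reductase, had 1 ± 0.554 CPM at 7 d and 27.2 ± 0.397 CPM at 6 h (log2 fold change -4.75 ± 0.51, adjusted p = 5.4e-07). Hmox1, the haem-degrading enzyme, had 1305, 889.6, 811, 1044 and 1198 CPM at 7 d, against 8756 and 12358 CPM at 6 h (log2 fold change -3.33 ± 0.37, adjusted p = 8.8e-07). Its 7 d libraries were nevertheless above the ex vivo mean of 58.9 ± 32 CPM. Ftl1, the ferritin light chain, was not called (log2 fold change -0.46 ± 0.29). The gene-length correction (-1.14, adjusted p = 0.0114) and the replicate block (-0.72, adjusted p = 0.0212) called it (0.0114 to 0.515 over 18 alternatives). Ferritin genes share reads with pseudogenes.

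Prdx1, a peroxiredoxin, had 499, 552, 562, 610.0 and 594 CPM at 7 d, against 1447 and 1635 CPM at 6 h (log2 fold change -1.45 ± 0.19, adjusted p = 3.8e-06). Its promoter (RefSeq, GRCm38.p6, chr4:116685349-116685648, plus strand) is shown for its antioxidant response element, a match to TGACNNNGC on the other strand, in capitals.
Prdx1: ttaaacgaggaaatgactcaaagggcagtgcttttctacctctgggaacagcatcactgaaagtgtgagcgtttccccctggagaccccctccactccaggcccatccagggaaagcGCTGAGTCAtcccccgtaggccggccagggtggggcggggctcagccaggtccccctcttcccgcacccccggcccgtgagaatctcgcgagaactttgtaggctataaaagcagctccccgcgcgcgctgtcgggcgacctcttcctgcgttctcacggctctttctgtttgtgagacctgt
This short motif is common: 17.08% of tested promoters held it, against 8 of the 15 fallen list members with a window.

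Receptors and other markers of microglia in the brain moved both ways. Of 26 tested, 10 rose, 7 fell and 9 were not called, with a median of 0.21, which is close to the 0.15 of all genes. P2ry12, a purine receptor, had 46.4, 37.2, 43.5, 30.4 and 39.9 CPM at 7 d, against 11.3 and 3.96 CPM at 6 h (log2 fold change 2.36 ± 0.47, adjusted p = 0.00037). The ex vivo mean was 4413 ± 1515 CPM, so the 7 d level stayed a small part of it. P2ry13 had 51.5, 33.3, 50.6, 29.4 and 65.9 CPM at 7 d, against 6.22 and 2.7 CPM at 6 h (log2 fold change 3.36 ± 0.40, adjusted p = 1.8e-06). Gpr34, a lysophosphatidylserine receptor, had 92, 81.9, 122, 33.4 and 120.1 CPM at 7 d, against 4.72 and 2.41 CPM at 6 h (log2 fold change 4.64 ± 0.72, adjusted p = 4.1e-05). Fcrls, an Fc receptor-like protein, had 656, 642, 957, 307 and 640.3 CPM at 7 d, against 123 and 48.6 CPM at 6 h (log2 fold change 2.90 ± 0.47, adjusted p = 4.5e-05). For these 4 genes every 7 d library lay above both 6 h libraries, and P2ry12, P2ry13, Gpr34 and Fcrls had 24 h means of 2.66 ± 1.39 CPM, 5.43 ± 1.04 CPM, 0.955 ± 0.435 CPM and 10.4 ± 4.77 CPM.

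Siglech, a sialic acid receptor, went the other way, with 1.95, 1.47, 1.75, 0.317 and 0.811 CPM at 7 d, against 61.5 and 30.5 CPM at 6 h (log2 fold change -5.17 ± 0.38, adjusted p = 1.1e-08), and its 24 h mean was 1.34 ± 0.555 CPM. Tgfbr1, the TGFb type I receptor, had 659, 292, 329.9, 320.5 and 558 CPM at 7 d, against 2759 and 1936 CPM at 6 h (log2 fold change -2.44 ± 0.29, adjusted p = 1.6e-06). Csf1r, the receptor for IL-34, had 1858, 1608, 1892, 1815 and 1714 CPM at 7 d, against 2247 and 2329.7 CPM at 6 h (log2 fold change -0.36 ± 0.15, adjusted p = 0.039). This small fall was lost under upper-quartile scaling (-0.23, adjusted p = 0.174) and when either 6 h library was left out (adjusted p = 0.0937 without replicate 1 and 0.143 without replicate 2), as it was in 12 of 18 alternatives in all (0.000222 to 0.174). Tmem119 had 27.4, 14.2, 17.5, 9.62 and 14.6 CPM at 7 d, against 14.6 and 6.21 CPM at 6 h and was not called (log2 fold change 0.68, adjusted p = 0.12). It was called higher in 5 of 18 alternatives (0.0235 to 0.78 over all 18), with a log2 fold change of 1.39 without 6 h replicate 1 (adjusted p = 0.0235). Cx3cr1, the fractalkine receptor, had 1096, 1034, 1219, 608 and 857 CPM at 7 d, against 925 and 789 CPM at 6 h and was not called (log2 fold change 0.17 ± 0.22). The number of fallen genes was 4 without 6 h replicate 1, against 7 with it.

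Microglial transcription factors were higher in 8 of 27 tested cases, lower in 12 and not called in 7, with a median of -0.42. Spi1, which encodes PU.1, the master factor of macrophages, had 299, 317, 343, 383 and 314 CPM at 7 d, against 742 and 789.6 CPM at 6 h (log2 fold change -1.21 ± 0.16, adjusted p = 6.9e-06). Irf8, its partner, had 349, 288, 329, 276 and 318 CPM at 7 d, against 132 and 142 CPM at 6 h (log2 fold change 1.19 ± 0.16, adjusted p = 8.0e-06). For both genes the groups were fully apart. Cebpb, an inflammatory leucine-zipper factor, had 49.2 ± 18.8 CPM at 7 d and 441 ± 125 CPM at 6 h (log2 fold change -3.17 ± 0.44, adjusted p = 1.3e-05). Etv1, an ETS factor, had 22.1, 28.5, 24.3, 25.7 and 18.7 CPM at 7 d, against 0.448 and 0.0575 CPM at 6 h (log2 fold change 6.47 ± 0.50, adjusted p = 1.2e-08). Bach2, a repressor, had 10.6 ± 2.63 CPM at 7 d and 47.5 ± 14.7 CPM at 6 h (log2 fold change -2.17 ± 0.21, adjusted p = 2.0e-07). Sall1, the factor that marks microglia among macrophages, had 175, 80.5, 108, 157 and 175 CPM at 7 d, against 180.2 and 197 CPM at 6 h and was not called (log2 fold change -0.44 ± 0.29); ex vivo it averaged 1925 ± 234 CPM. Pparg, a lipid-sensing nuclear receptor, had 10.6 ± 3.78 CPM at 7 d and 2.42 ± 0.887 CPM at 6 h (log2 fold change 2.14 ± 0.59, adjusted p = 0.0044), a call lost without 6 h replicate 1 (adjusted p = 0.0751).

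TGFb pathway genes fell in 15 of 24 tested cases and rose in 4, with a median of -1.11. Neither group had added TGFb. Of the 8 targets and inhibitors 7 fell, among them Smad7, the feedback inhibitor, with 52.4, 54.7, 60.8, 38.1 and 40.3 CPM at 7 d, against 272 and 267 CPM at 6 h (log2 fold change -2.45 ± 0.19, adjusted p = 1.1e-08), and Tgfbi, with 7.88 ± 4.52 CPM at 7 d and 119 ± 52.2 CPM at 6 h (log2 fold change -3.92 ± 0.51, adjusted p = 6.9e-06). Lrrc32 encodes GARP, which holds latent TGFb on the cell surface. It had 0.258, 0.274, 0.223, 0.158 and 0.299 CPM at 7 d, against 307 and 271 CPM at 6 h (log2 fold change -10.19 ± 0.28, adjusted p = 2.3e-13). It was near 0 ex vivo, at 0.0538 ± 0.0964 CPM, and at 82.5 ± 10.4 CPM at 24 h. The receptors parted: Tgfbr1 fell as given above, and Tgfbr2, the type II receptor, rose, with 699, 752, 952, 656 and 827 CPM at 7 d, against 166 and 144 CPM at 6 h (log2 fold change 2.33 ± 0.18, adjusted p = 1.1e-08). Tgfb1 itself was not called (log2 fold change -0.28 ± 0.14, adjusted p = 0.099), though RLE scaling called it lower (-0.41, adjusted p = 0.0265; 0.00553 to 0.524 over 18 alternatives).

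**Figure D4:**
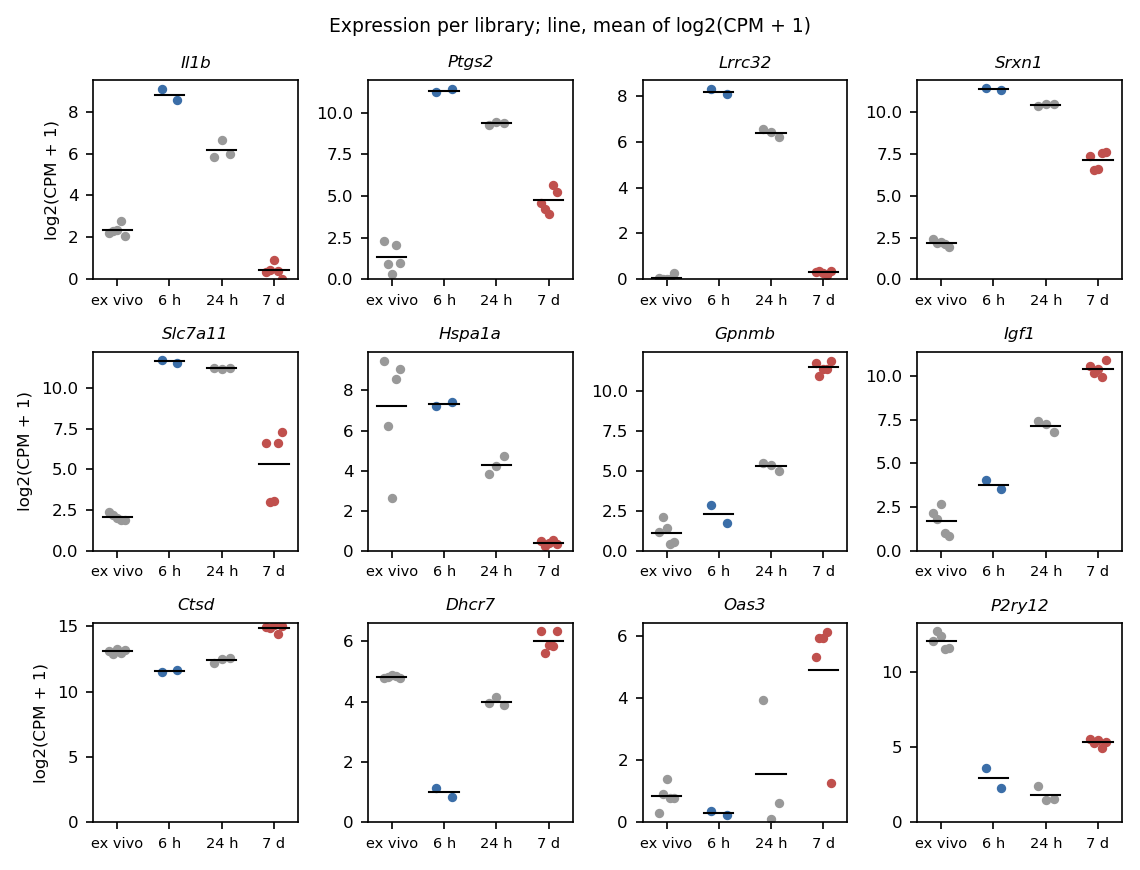
Log2(CPM + 1) of 12 genes (y axis) in each library ex vivo and after 6 h, 24 h and 7 d in culture (x axis, in order of time; ex vivo n = 5, 6 h n = 2, 24 h n = 3, 7 d n = 5); points are libraries, black lines the mean of log2(CPM + 1), red 7 d and blue 6 h. Il1b, Ptgs2, Lrrc32, Srxn1, Slc7a11 and Hspa1a lie lower at 7 d than at 6 h and Gpnmb, Igf1, Ctsd, Dhcr7 and P2ry12 lie higher in every library, as does Oas3, whose 7 d replicate 5 is far below the other 7 d libraries.

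Disease-associated genes, a set that microglia are known to raise around plaques and dying cells, were mostly higher at 7 d. Of 27 tested, 17 rose, 6 fell and 4 were not called, with a median of 1.41. Gpnmb, a lysosomal glycoprotein, had 3421, 1965, 2612, 2624 and 3771 CPM at 7 d, against 6.42 and 2.3 CPM at 6 h (log2 fold change 9.36 ± 0.80, adjusted p = 7.6e-08). Igf1, insulin-like growth factor 1, had 1490.4, 1151, 1369, 962 and 1900.4 CPM at 7 d, against 15.3 and 10.4 CPM at 6 h (log2 fold change 6.74 ± 0.66, adjusted p = 3.1e-07). Spp1, osteopontin, had 557, 1216, 1109.9, 516 and 157 CPM at 7 d, against 11.5 and 9.94 CPM at 6 h (log2 fold change 6.05 ± 0.89, adjusted p = 2.3e-05). Its lowest 7 d library, replicate 5, was still above both 6 h libraries. Trem2, a lipid-sensing receptor, had 679.5, 958, 1195, 687 and 890.0 CPM at 7 d, against 111 and 151 CPM at 6 h (log2 fold change 2.75 ± 0.29, adjusted p = 3.8e-07). Apoe, apolipoprotein E, had 779.7, 289, 870.2, 266 and 1064 CPM at 7 d, against 30.8 and 19.5 CPM at 6 h (log2 fold change 4.70 ± 0.87, adjusted p = 0.00022). Fabp5, a fatty acid binding protein with many pseudogenes, had 20.7 ± 6.46 CPM at 7 d and 0.289 ± 0.0837 CPM at 6 h (log2 fold change 6.12 ± 0.72, adjusted p = 1.6e-06), a value that may miss shared reads.

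Several members of the same set fell or were not called. Lpl, lipoprotein lipase, was already at its high level by 6 h, with 9331, 9933, 10567, 10717 and 10539 CPM at 7 d, against 9142 and 9447 CPM at 6 h (log2 fold change 0.14 ± 0.35, adjusted p = 0.75), against 31.2 ± 14.7 CPM ex vivo. Lgals3, galectin 3, had 2108, 1627, 1726, 2209 and 1711 CPM at 7 d, against 1271 and 1898 CPM at 6 h and was not called. Mmp12, a macrophage elastase of the matrix list, had 1944, 2730.4, 2226, 1191 and 2279 CPM at 7 d, against 1290.4 and 1439 CPM at 6 h and was not called. Axl, a receptor for apoptotic cells, fell, with 21, 52.2, 54.1, 19.2 and 4.87 CPM at 7 d, against 489 and 413 CPM at 6 h (log2 fold change -3.89 ± 0.60, adjusted p = 4.0e-05). Itgax, which encodes CD11c, fell too, with 38.8, 91.3, 117, 18.5 and 61.8 CPM at 7 d, against 230.4 and 268 CPM at 6 h (log2 fold change -1.93 ± 0.45, adjusted p = 0.0014), and so did Csf1, the other ligand of CSF1R, with 10.1, 37.1, 61.3, 11.4 and 10.5 CPM at 7 d, against 569 and 518 CPM at 6 h (log2 fold change -4.38 ± 0.59, adjusted p = 1.2e-05).

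Lysosomal genes rose together: of 44 tested, 34 were higher, 1 was lower and 9 were not called, with a median of 0.95. By role, 8 of 9 cathepsins, 13 of 15 hydrolases, 5 of 7 membrane proteins and 8 of 13 proton pump subunits rose. Ctsd, cathepsin D, had 31313, 29626, 34346, 22091 and 32975 CPM at 7 d, against 2943 and 3281 CPM at 6 h (log2 fold change 3.27 ± 0.26, adjusted p = 1.4e-08). Ctsb, cathepsin B, had 27986, 19421, 22219, 23859 and 25824 CPM at 7 d, against 8085 and 7742 CPM at 6 h (log2 fold change 1.59 ± 0.18, adjusted p = 8.5e-07). Hexa, a hexosaminidase subunit, had 1600.0 ± 289 CPM at 7 d and 138 ± 11 CPM at 6 h (log2 fold change 3.54 ± 0.26, adjusted p = 7.2e-09), and Grn, progranulin, had 2409 ± 334 CPM at 7 d and 199 ± 18.6 CPM at 6 h (log2 fold change 3.59 ± 0.20, adjusted p = 3.5e-10). Atp6v0d2, an alternative subunit of the proton pump found in macrophages and osteoclasts, had 82.7, 48.1, 61.1, 45.9 and 142 CPM at 7 d, against 0.249 and 0.862 CPM at 6 h (log2 fold change 7.12 ± 0.69, adjusted p = 2.7e-07). Lipa, the lysosomal acid lipase, and Ctsz were not called in the TMM fit, and RLE scaling put Lipa lower (-0.47, adjusted p = 0.0294; 0.0159 to 0.401 over 18 alternatives). Of the 18, 6 called Ctsz higher (0.00588 to 0.626). Since many of these changes are small, the scale counts: with the gene-length trend taken out 31 were higher and 5 lower.

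The Ctsd promoter (RefSeq, GRCm38.p6, chr7:142387778-142388077, minus strand) is shown because it holds the core of the CLEAR element, the site that TFEB-family factors bind in lysosomal genes. Capitals mark TCACGTGA.
Ctsd: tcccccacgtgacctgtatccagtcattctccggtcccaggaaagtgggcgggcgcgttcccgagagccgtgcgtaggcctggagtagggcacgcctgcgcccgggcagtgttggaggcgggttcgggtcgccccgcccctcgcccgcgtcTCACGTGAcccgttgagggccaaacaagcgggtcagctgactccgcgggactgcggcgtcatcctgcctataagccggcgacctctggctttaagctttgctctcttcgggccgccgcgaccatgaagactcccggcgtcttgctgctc
This core was in 2.15% of the promoters of tested genes, in 5 of the 27 lysosomal genes that rose and had a window, and in 0 of the 6 that were not called.

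Cholesterol synthesis genes rose in 24 of 27 tested cases, with 0 lower and 3 not called, with a median of 2.24. Dhcr7, which makes cholesterol from its last precursor, had 78.9, 47.6, 57.9, 56.5 and 79.3 CPM at 7 d, against 1.19 and 0.804 CPM at 6 h (log2 fold change 5.98 ± 0.33, adjusted p = 3.4e-10). Mvk, mevalonate kinase, had 12.6 ± 1.69 CPM at 7 d and 0.494 ± 0.277 CPM at 6 h (log2 fold change 4.68 ± 0.46, adjusted p = 2.0e-07), Cyp51, the lanosterol demethylase, had 150.3 ± 49.4 CPM at 7 d and 7.39 ± 0.112 CPM at 6 h (log2 fold change 4.34 ± 0.46, adjusted p = 7.3e-07), and Hsd17b7 had 40.6 ± 16.3 CPM at 7 d and 1.7 ± 0.694 CPM at 6 h (log2 fold change 4.56 ± 0.50, adjusted p = 8.2e-07). Cyp51 had reached 159 ± 21.3 CPM by 24 h. Srebf2, the regulator of the pathway, had 337, 220.4, 264, 323 and 353 CPM at 7 d, against 185 and 188 CPM at 6 h (log2 fold change 0.68 ± 0.21, adjusted p = 0.0078), and the call was lost when either 6 h library was left out (adjusted p = 0.0789 and 0.0651). At 7 d, replicates 2 and 3 had the lowest levels of Cyp51.

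Hmgcs1, an early enzyme of the pathway, had 169, 109, 146, 129 and 212 CPM at 7 d, against 45.8 and 42.8 CPM at 6 h (log2 fold change 1.79 ± 0.38, adjusted p = 0.00058). Its promoter (RefSeq, GRCm38.p6, chr13:119690101-119690400, plus strand) is shown for a sterol response element, a match to TCACNCCAC in capitals.
Hmgcs1: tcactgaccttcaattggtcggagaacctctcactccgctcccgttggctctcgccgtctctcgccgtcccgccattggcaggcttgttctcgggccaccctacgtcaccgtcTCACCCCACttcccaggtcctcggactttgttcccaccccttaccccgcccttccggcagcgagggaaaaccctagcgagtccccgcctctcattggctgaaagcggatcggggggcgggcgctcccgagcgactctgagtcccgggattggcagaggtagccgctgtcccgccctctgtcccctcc
It was the only one of the 19 risen list members with a window to hold this spelling, against 1.4% of tested promoters.

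Genes for lipid uptake, storage, synthesis and export rose in 20 of 36 tested cases, fell in 7 and were not called in 9, with a median of 1.07. By role, 7 of 9 uptake, 6 of 11 synthesis and 4 of 7 efflux genes rose. Of 9 droplet genes, 3 rose and 4 fell, with a median of -0.64. Scd2, a fatty acid desaturase, had 268, 40.1, 63.3, 172 and 255 CPM at 7 d, against 3.58 and 4.37 CPM at 6 h (log2 fold change 5.33 ± 0.78, adjusted p = 2.4e-05). Abca1, the cholesterol exporter, had 299.7, 76.1, 130.1, 141 and 252 CPM at 7 d, against 28 and 17 CPM at 6 h (log2 fold change 3.00 ± 0.60, adjusted p = 0.00039). Plin2, the coat protein of lipid droplets, had 2872 ± 232 CPM at 7 d and 720.4 ± 126 CPM at 6 h (log2 fold change 2.00 ± 0.21, adjusted p = 4.3e-07). Olr1, a receptor for oxidised LDL, fell, with 0.402 ± 0.2 CPM at 7 d and 16.7 ± 6.18 CPM at 6 h (log2 fold change -5.34 ± 0.53, adjusted p = 3.2e-07). For Scd2 and Abca1 replicates 2 and 3 again had the lowest 7 d levels.

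Cell cycle genes rose in 24 of 36 tested cases, fell in 1 and were not called in 11, with a median of 3.64. The 7 d libraries differed widely among themselves. Their mean log2(CPM + 1) over the list was 3.62, 5.52, 4.53, 4.17 and 2.76 in 7 d replicates 1 to 5, against 2.17 and 2.16 at 6 h. Replicate 2 was highest and replicate 5 lowest, and all lay above both 6 h libraries. Top2a, a topoisomerase of dividing cells, had 22.8, 154, 52.6, 45.2 and 6.02 CPM at 7 d, against 0.497 and 0.747 CPM at 6 h (log2 fold change 6.50 ± 1.30, adjusted p = 0.00044). Rrm2, a ribonucleotide reductase subunit, had 6.37, 56.5, 20.4, 12.2 and 1.71 CPM at 7 d, against 0.149 and 0.0575 CPM at 6 h (log2 fold change 7.44 ± 1.56, adjusted p = 0.00064), and Bub1, a mitotic checkpoint kinase, had 10 ± 9.85 CPM at 7 d and 0.111 ± 0.0867 CPM at 6 h (log2 fold change 6.48 ± 1.52, adjusted p = 0.0015). Mki67, the proliferation antigen, had 36, 151, 48.1, 65.6 and 7.55 CPM at 7 d, against 6.91 and 10.3 CPM at 6 h (log2 fold change 2.84 ± 0.95, adjusted p = 0.016). Its groups overlapped, and the call was lost when either 6 h library was left out. The log2 fold change was then 2.53 without 6 h replicate 1 and 3.12 without 6 h replicate 2. Leaving out 7 d replicates 2 and 3 together also ended the call (2.07, adjusted p = 0.0671). Ccnd1, cyclin D1, had 436, 1058, 559.6, 579.9 and 302 CPM at 7 d, against 79.1 and 63.8 CPM at 6 h (log2 fold change 3.04 ± 0.51, adjusted p = 8.3e-05). Pcna and Cdt1 were not called. The 7 d and 6 h libraries alone gave Pcna a call (0.89, adjusted p = 0.0169; 0.0169 to 0.628 over 18 alternatives). An E2F site, a match to TTTCCCGC, was in 2.36% of the promoters of tested genes. Among list members with a window, 2 of 19 that rose held it, 2 of 9 not called and 0 of 1 that fell. In bulk RNA, more dividing cells and more RNA per dividing cell cannot be told apart, and the same holds for every other gene group here.

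Interferon response genes rose in 17 of 26 tested cases, fell in 1 and were not called in 8, with a median of 2.66. Both groups varied from library to library: the list averaged 5.54, 5.91, 6.05, 6.02 and 3.99 log2(CPM + 1) in 7 d replicates 1 to 5, against 3.93 and 2.50 in 6 h replicates 1 and 2. The lowest 7 d library and the highest 6 h library were thus nearly level. The count depends on which 6 h library is kept: 8 genes rose without 6 h replicate 2 and 21 without 6 h replicate 1. Ifitm3, a membrane protein that blocks virus entry, had 152, 161, 148, 273 and 32.3 CPM at 7 d, against 0.845 and 0.23 CPM at 6 h (log2 fold change 8.10 ± 1.50, adjusted p = 0.00023). Oas2, an RNA sensor of the oligoadenylate synthetase family, had 75.4, 72, 74.5, 120.4 and 12.9 CPM at 7 d, against 2.14 and 0.402 CPM at 6 h (log2 fold change 5.77 ± 1.41, adjusted p = 0.0021), and Oas1a had 43.6 ± 15.2 CPM at 7 d and 1.48 ± 1.36 CPM at 6 h (log2 fold change 4.85 ± 0.89, adjusted p = 0.00019). Oas3 had 39.5, 60.8, 60.4, 68.7 and 1.41 CPM at 7 d, against 0.298 and 0.172 CPM at 6 h (log2 fold change 7.56 ± 2.07, adjusted p = 0.0048), a call lost without 6 h replicate 2 (adjusted p = 0.0512). Irf7 had 54.8, 149.9, 194, 104 and 17.2 CPM at 7 d, against 25.6 and 6.95 CPM at 6 h (log2 fold change 2.67 ± 1.02, adjusted p = 0.0304), with overlapping groups and no call without 6 h replicate 2 (adjusted p = 0.219) or in 6 other alternatives of 18 (0.00858 to 0.219), leaving out 7 d replicate 2 or 3 among them.

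Isg15, a ubiquitin-like protein, had 16.3, 28.1, 27.3, 28.4 and 4.4 CPM at 7 d, against 8.65 and 2.47 CPM at 6 h and missed the threshold (log2 fold change 1.90, adjusted p = 0.053). It was called higher in 7 of 18 alternatives (0.0173 to 0.335 over all 18), with 3.04 without 6 h replicate 1. Ifih1, the sensor MDA5, had 96.4, 111, 115, 114 and 56.1 CPM at 7 d, against 179 and 21.8 CPM at 6 h. The 6 h libraries stood on either side of all 5 at 7 d, and the sign turned with them: log2 fold change -0.03 with both and 2.14 without 6 h replicate 1 (adjusted p = 0.00739). The Oas3 promoter (RefSeq, GRCm38.p6, chr5:120777610-120777909, minus strand) is shown for its interferon-stimulated response element, a match, in capitals, to GAAA repeated after 2 bases of any kind.
Oas3: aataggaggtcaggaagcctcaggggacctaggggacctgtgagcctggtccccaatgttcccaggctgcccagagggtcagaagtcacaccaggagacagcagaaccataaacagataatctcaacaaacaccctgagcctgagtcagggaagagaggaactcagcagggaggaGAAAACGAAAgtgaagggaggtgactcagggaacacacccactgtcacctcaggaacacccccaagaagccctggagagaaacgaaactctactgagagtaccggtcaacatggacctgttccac
The motif was in 3.83% of the promoters of tested genes, in 7 of the 11 risen list members with a window and in 4 of the 7 not called.

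**Figure D5:**
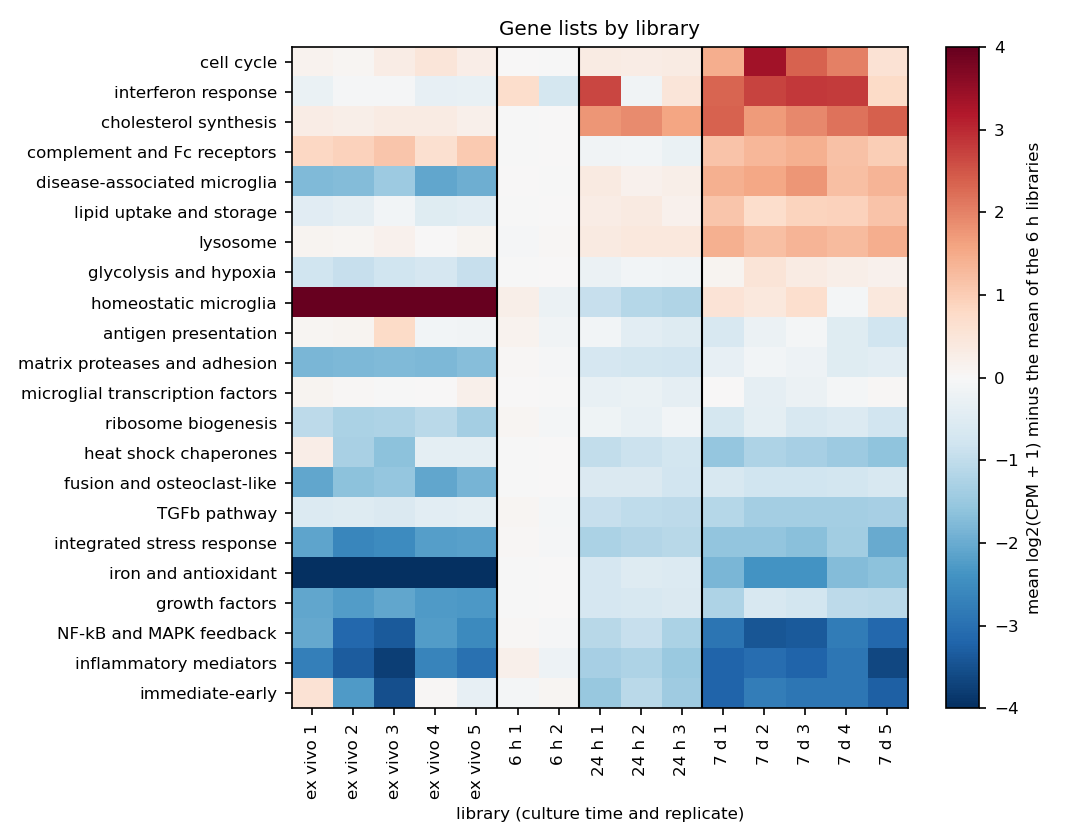
Mean log2(CPM + 1) of each gene list (rows, ordered by median log2 fold change) in each library (columns: ex vivo, 6 h, 24 h and 7 d with replicate number), minus the mean of the 6 h libraries; colours stop at 4 and -4, so more extreme ex vivo cells are drawn at the limit. The interferon row shows 24 h replicate 1 and 7 d replicates 1 to 4 high and 7 d replicate 5 near 6 h replicate 1, and the cell cycle row is highest in 7 d replicate 2.

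Antigen presentation genes moved both ways, in shares near those of all genes. Of 21 tested genes 7 rose, 8 fell and 6 were not called, with a median of 0.14. Of the class II genes 4 of 7 fell and 2 rose, and of the class I genes 5 of 9 rose and 0 fell; a difference between the classes was not tested. Cd74, the class II invariant chain, had 2.25, 10.1, 13.1, 2.61 and 1.54 CPM at 7 d, against 419.9 and 443 CPM at 6 h (log2 fold change -6.18 ± 0.77, adjusted p = 5.4e-06). The 7 d libraries were all under 14 CPM, with replicates 2 and 3 highest. H2-DMb1, which loads peptides on class II, rose, with 21.1 ± 6.24 CPM at 7 d and 1.35 ± 0.278 CPM at 6 h (log2 fold change 3.96 ± 0.35, adjusted p = 5.6e-08). Psmb9, an immunoproteasome subunit, had 22.4 ± 13.6 CPM at 7 d and 2.28 ± 1.2 CPM at 6 h (log2 fold change 3.28 ± 0.66, adjusted p = 0.00046), and Icosl, a costimulatory ligand, had 10.9 ± 3.98 CPM at 7 d and 106 ± 12.9 CPM at 6 h (log2 fold change -3.27 ± 0.23, adjusted p = 5.1e-09). The class I heavy chains H2-K1 and H2-D1 were not called, and their reads can be shared with related genes. Without 6 h replicate 2, 4 genes rose in place of 7.

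Complement and Fc receptor genes rose in 13 of 18 tested cases and fell in 3, with a median of 1.64, and all 5 Fc receptor genes rose. C1qa, C1qb and C1qc encode the chains of C1q, the first component of the classical pathway. They had log2 fold changes of 2.03 ± 0.29, 1.72 ± 0.25 and 2.66 ± 0.26, and C1qc had 1654, 1423, 1884, 1605 and 1341 CPM at 7 d, against 250.2 and 251 CPM at 6 h. Fcgr4, an activating IgG receptor, had 24.4, 22.5, 25.8, 28.8 and 24 CPM at 7 d, against 0.199 and 0.0575 CPM at 6 h (log2 fold change 7.51 ± 0.49, adjusted p = 2.0e-09). Fcgr1 had 159 ± 47.1 CPM at 7 d and 23.5 ± 0.88 CPM at 6 h (log2 fold change 2.75 ± 0.40, adjusted p = 1.8e-05), and Fcgr2b, the inhibitory receptor, had 186 ± 113 CPM at 7 d and 23.6 ± 3.36 CPM at 6 h (log2 fold change 2.98 ± 0.50, adjusted p = 7.9e-05). C3 had 16.7, 15.1, 19.4, 40.3 and 6.44 CPM at 7 d, against 3.13 and 2.93 CPM at 6 h (log2 fold change 2.69 ± 0.93, adjusted p = 0.019), a call lost when either 6 h library was left out (adjusted p = 0.108 and 0.114). Itgam, which encodes CD11b, and Cfb were not called.

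Adhesion and fusion genes moved both ways, and Ocstamp, of the fusion list, was among the 10 largest falls. Ocstamp and Dcstamp encode membrane proteins needed for macrophages to fuse. Ocstamp had 0.0368, 0.343, 0.186, 0 and 0 CPM at 7 d, against 156 and 185 CPM at 6 h (log2 fold change -10.41 ± 0.50, adjusted p = 1.7e-10), and Dcstamp had 0.442, 0.686, 0.223, 0.198 and 0.427 CPM at 7 d, against 175 and 191 CPM at 6 h (log2 fold change -8.82 ± 0.31, adjusted p = 5.3e-12). At 24 h they averaged 5.37 ± 0.967 CPM and 144 ± 33.6 CPM. The fusion and osteoclast list as a whole gave 4 higher and 7 lower of 14 tested, with a median of -1.09. Of its 7 genes under the fusion role, 3 rose and 4 fell. Acp5, the tartrate-resistant phosphatase, had 0.705 ± 0.502 CPM at 7 d and 17.2 ± 2.43 CPM at 6 h (log2 fold change -4.58 ± 0.71, adjusted p = 2.9e-05). Matrix protease and adhesion genes gave 7 higher, 9 lower and 18 not called of 34, with a median of 0.10. The share called was 47.1%, below the 66.0% of all tested genes. Itga5, a fibronectin receptor chain, had 445, 278, 265, 345 and 375 CPM at 7 d, against 4226 and 3909 CPM at 6 h (log2 fold change -3.57 ± 0.20, adjusted p = 4.0e-10). Itga4 moved the other way, with 28.1, 55.2, 46.8, 33.8 and 32.1 CPM at 7 d, against 0.547 and 0.69 CPM at 6 h (log2 fold change 5.98 ± 0.90, adjusted p = 3.0e-05). Flnc, a filamin, had 2.98 ± 0.984 CPM at 7 d and 186 ± 23.5 CPM at 6 h (log2 fold change -5.96 ± 0.30, adjusted p = 1.8e-10), whereas Flna and the protease Adam8 were not called (DESeq2 alone of 18 alternatives called Flna lower, with adjusted p = 0.0453 to 0.74 over all 18).

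Metabolic and growth genes changed in parts. Glycolysis and hypoxia genes rose in 13 of 27 tested cases, fell in 6 and were not called in 8, with a median of 0.55. Some members have many pseudogenes and were low for genes that most cells express, such as Gapdh, with 0.778 ± 0.129 CPM at 7 d and 0.796 ± 0.0696 CPM at 6 h, so these counts are uncertain. The glucose transporters crossed over: Slc2a1 had 84.7, 99.9, 82.1, 98.4 and 78.7 CPM at 7 d, against 468 and 484 CPM at 6 h (log2 fold change -2.42 ± 0.15, adjusted p = 7.2e-10) and Slc2a3 had 33.8, 43.4, 33.2, 36.5 and 29.9 CPM at 7 d, against 4.33 and 6.61 CPM at 6 h (log2 fold change 2.70 ± 0.31, adjusted p = 1.0e-06). Vegfa, a hypoxia target and growth factor, had 5.2 ± 2.31 CPM at 7 d and 31.8 ± 6.37 CPM at 6 h (log2 fold change -2.61 ± 0.37, adjusted p = 1.3e-05). Of 20 nucleolar genes of ribosome biogenesis 12 fell, 0 rose and 8 were not called, with a median of -0.63, and Gnl3 had 41.5 ± 4.72 CPM at 7 d and 118 ± 8.43 CPM at 6 h (log2 fold change -1.51 ± 0.14, adjusted p = 1.2e-07). Of 11 tested growth factors 3 rose and 6 fell, with a median of -1.92. Pdgfa had 15.9 ± 1.58 CPM at 7 d and 165 ± 19 CPM at 6 h (log2 fold change -3.38 ± 0.23, adjusted p = 2.9e-09) and Hbegf had 1.08 ± 0.83 CPM at 7 d and 17.1 ± 0.439 CPM at 6 h (log2 fold change -3.97 ± 0.53, adjusted p = 5.9e-06). Inhba had 5 reads at 7 d and 0 at 6 h, so no fold is given.

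Outside these lists, the 10 largest rises included Lyz2, macrophage lysozyme, with 10868, 4550.2, 4089, 10499.6 and 8884 CPM at 7 d, against 17.3 and 7.3 CPM at 6 h (log2 fold change 9.30 ± 0.74, adjusted p = 2.8e-08). Its reads can be shared with the paralog Lyz1. Siglec1, a sialic acid receptor of tissue macrophages, had 256, 158, 116, 304 and 77.2 CPM at 7 d, against 0.398 and 0.115 CPM at 6 h (log2 fold change 9.39 ± 1.40, adjusted p = 3.0e-05). Ms4a7, a membrane protein of macrophages, had 162, 87.8, 111, 155 and 137 CPM at 7 d, against 0.696 and 0.23 CPM at 6 h (log2 fold change 8.08 ± 0.80, adjusted p = 4.1e-07), and Wfdc17 had 160.0 ± 32.8 CPM at 7 d and 0.178 ± 0.17 CPM at 6 h (log2 fold change 9.71 ± 0.56, adjusted p = 5.7e-10). Clec12a, an inhibitory lectin, had 69.8, 313, 288, 129 and 53.3 CPM at 7 d, against 0.0995 and 0.0575 CPM at 6 h. It rested on 3 reads at 6 h, which gives a ratio of 2210 with an exact counting interval of 755 to 10700. Mgst1, a glutathione transferase, had 3836 reads at 7 d and 1 at 6 h (ratio 1090, interval 196 to 43100). Asb10 and Hacd4 rose with log2 fold changes of 8.14 ± 0.85 and 7.91 ± 0.63.

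Among the largest falls outside the lists, Gpr132, a receptor for oxidised lipids and acid, had 0.184, 0.48, 0.223, 0.238 and 0.299 CPM at 7 d, against 125 and 143 CPM at 6 h (log2 fold change -8.84 ± 0.36, adjusted p = 2.0e-11). Ptprf, a receptor phosphatase, had 1 read at 7 d and 1339 at 6 h, a ratio of 4710 in favour of 6 h with an interval of 844 to 186000. Intervals on reads cover counting error only.

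Markers of macrophages at the borders of the brain moved with the rises. Their 7 markers summed to 129.7 to 380.8 CPM at 7 d and 2.38 to 4.91 CPM at 6 h. Siglec1, Mrc1, Pf4 and Cbr2 rose (4 of 7), with Mrc1 at 45.0 to 89.2 CPM at 7 d and 1.48 to 2.24 CPM at 6 h by total counts. Lyve1, Cd163 and F13a1 were not called, with log2 fold changes of 0.65, 1.50 and 0.47, and Lyve1 had 6 reads at 7 d and 1 at 6 h. Dendritic cell markers summed to 0.821 to 2.67 CPM at 7 d and 20.8 to 23.6 CPM at 6 h, of which Zbtb46 was 0.535 to 2.12 CPM at 7 d and 17.8 to 18.9 CPM at 6 h. Zbtb46, Ccr7 and Xcr1 fell, with log2 fold changes of -4.28, -7.20 and -2.79. Astrocyte markers summed to 8.97 to 12.9 CPM at 7 d and 3.88 to 8.46 CPM at 6 h. Among them Aldh1l1 rose (6.74), and no other was called. Fibroblast markers summed to at most 0.0384 CPM at 7 d and 0.0468 CPM at 6 h. Oligodendrocyte markers summed to 47.3 to 71.6 CPM at 7 d and 24.8 to 25.5 CPM at 6 h, mostly Cnp, which rose, while Mag fell. Markers of oligodendrocyte precursors summed to 0.951 to 20.1 CPM at 7 d and 73.1 to 80.8 CPM at 6 h, nearly all of it Cspg4 at 6 h, which fell (log2 fold change -3.98). Endothelial markers summed to 15.9 to 44.4 CPM at 7 d and 43.5 to 48.3 CPM at 6 h; Pecam1 fell (-4.33), and Flt1 (1.85) and Cdh5 (1.98) rose. Mural markers summed to 2.23 to 2.86 CPM at 7 d and 5.62 to 6.59 CPM at 6 h, with 3 of 4 tested lower. The remaining lists, of blood cells and of choroid and ependymal cells, summed to at most 6.41 CPM in any library of either time. Of their members Ccr2 (1.43), Mmp8 (3.68), Lck (2.025) and Cd79b (2.22) rose, and no other was called. The part of other cells in the gene lists above was not tested.

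Chromatin was profiled at 7 d and ex vivo, and the series holds no chromatin sample at 6 h. Of the promoters of genes at least 2-fold higher at 7 d, 86.1% overlapped an accessible region (ATAC peak) at 7 d and 84.1% ex vivo. For genes at least 2-fold lower the shares were 72.0% at 7 d and 72.5% ex vivo, and for all tested genes with a window 81.4% at 7 d and 80.5% ex vivo, the same order at both. H3K27ac peaks, a mark of active promoters, overlapped 74.3% of promoters of the higher genes at 7 d and 78.6% ex vivo, 64.7% of the lower at 7 d and 72.0% ex vivo, and 73.1% of all at 7 d and 78.8% ex vivo. An H3K27ac peak was present at 7 d only at 6.1% of promoters of the higher genes, 2.22% of the lower and 3.09% of all. Ex vivo only, the shares were 10.44%, 9.55% and 8.75%. In the same order, an ATAC peak was present at 7 d only at 4.62%, 4.6% and 4.02%, and ex vivo only at 2.62%, 5.15% and 3.14%. These peak lists are the authors', called on pooled samples, so no replicate error can be given. By its label, an ATAC sample pooled as 7 d was cultured for longer than 7 d.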

How the data were processed

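Poly(A) RNA of 17 microglial libraries was used, 5 at 7 d and 2 at 6 h for the comparison and 10 others that share the estimate of spread. The label of 24 h replicate 2 gives 22 h. The authors deposited whole-number read counts per gene symbol, and a TPM table. STAR, Bowtie2, HOMER, R 3.3.1 and mm10 are named in the submitters' processing notes; the counting tool, its annotation and any use of strand are, for the counts, not given in the sources used here. Peak positions were deposited by the authors as HOMER lists called on pooled samples, per the file headers.

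The deposited counts went into edgeR 4.0.16 (R 4.3.3; TMM, filterByExpr, robust quasi-likelihood F test on group means, contrast 7 d minus 6 h), with Benjamini-Hochberg adjustment over all 13840 genes and a threshold of 0.05. Errors of fold changes are standard errors, computed as the log2 fold change over the square root of F. CPM values use TMM library sizes, except those of cell type markers, which use total counts. Values with ± are means and SD over 5 libraries at 7 d, 2 at 6 h, 3 at 24 h and 5 ex vivo.

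The members and the 22 gene lists were chosen with earlier results of these data known, so no list is given a test. Genes named are a fixed set, the 10 largest rises and falls at 20 CPM or more without overlap, and up to 4 called and 2 uncalled members per list. Another 14, among them Cxcl1, Prdx1 and Hmgcs1, and the promoters shown, were chosen after their values were seen. A few genes that the rule names are not reported here. Promoters come from RefSeq on GRCm38.p6, the same genome as mm10, for 10457 tested genes.

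Alternatives were RLE and upper-quartile scaling, DESeq2 1.42.0, no filter, the 7 libraries alone, a replicate block, limma 3.58.1 on log2 of the deposited TPM with a pseudocount of 1 or 0.1, and libraries left out. Replicate numbers 1 and 2 occur at both times, but no label says that they pair samples. No 2 libraries of the 7 d group agreed within sampling noise, nor did the 2 of the 6 h group. Other pairs were not checked. In simulated data for 7 d against 6 h with 13428 genes, 50.5% of 2-fold and 83.8% of 4-fold changes were recovered, with 9 false calls among 13230 unchanged genes. The simulation changed few genes, up and down alike, and gave every group the same spread. It therefore does not show how many false calls to expect in data with 66.0% of genes called. Genes that share reads with copies are uncertain. Python 3.11.15 with matplotlib 3.10.9 drew the figures.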

Additional observations from a re-analysis of the deposited data

Results flagged for a closer look

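Among 193 sets of 5 values at 7 d, 9 held a library far from the other 4 by Dixon's test, and chance alone gives about 1 in 20.

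Replicate 5 had the lowest level of the interferon response list, at a mean log2(CPM + 1) of 3.99 against 5.54 to 6.05 in the other 7 d libraries. It also had the lowest Fcgr1, at 77.0 CPM against 168 to 196 CPM, and the highest Tgfb1, at 471 CPM against 396 to 417 CPM.

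Replicate 1 had the highest level of the TGFb pathway list, at 5.65 against 5.41 to 5.47. It was also highest for Cxcl1, at 0.589 CPM against 0.137 to 0.256 CPM, and for Cxcl3, at 0.147 CPM against 0 to 0.0372 CPM.

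Replicate 4 was highest for Fosl1, at 3.52 CPM against 0.743 to 1.51 CPM, and for Cebpb, at 82.1 CPM against 34.6 to 44.9 CPM. Replicate 3 held the only Ptprf read, which gives 0.0372 CPM against 0 in the other 4 libraries. The values of Cxcl1, Cxcl3 and Ptprf rest on a few reads.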

How the results depend on the processing

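Under 18 alternatives, the counts of genes called moved by less than 1.5 times: 3904 to 5458 higher and 3405 to 4699 lower, against 4984 and 4145. Without 6 h replicate 1 there were 3904 higher and 3574 lower, and DESeq2 gave 4706 and 4572. With a replicate block 4888 were higher and 3953 lower. Deviations from the group mean, for libraries with the same number, correlated at 0.0486 for replicate 1 and -0.0189 for replicate 2. With 2 libraries at 6 h, their deviations are equal and opposite, so these correlations are not separate checks. No label pairs the libraries. Of 171 named genes, 137 kept their call in every alternative run. The sign of 1 called value was reversed: Ifih1 without 6 h replicate 1, at 2.14, while it was -0.90 without replicate 2. Another 44 values of 15 genes that were called in neither fit changed sign.

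Of 792 list counts, 27 moved by over 1.5 times, in 9 of 44 lists and directions. Higher interferon genes were 8 without 6 h replicate 2, against 17, and lower ones 0 without replicate 1, against 1. Higher antigen presentation genes were 4 without 6 h replicate 2, against 7, and lower homeostatic genes 4 without replicate 1, against 7. Lower lysosomal genes were 3 with RLE or DESeq2, 2 with the block and 5 with the length trend taken out, against 1. The other moved counts were of 0 to 2 genes. The cause was not tested. With 2 libraries at 6 h, that group's own spread is poorly known, and genes near 1 CPM rest on few reads.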
